A study of Mus musculus with 14 samples.

Results

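Of 57289 consensus ATAC-seq peaks in mouse long-term haematopoietic stem cells, 2212 lay in peak-poor megabases, and these 2212 peaks are described here. The 19 autosomes were divided into fixed bins of 1 Mb by peak start, and a bin was taken as peak-poor when it held 8 or fewer peaks. This choice used peak positions only and no counts. The positions are those of consensus peaks, though, and how each group weighed in calling them is not given in the sources used here. Whether this favours weak sites open in the groups with more libraries was not tested. It gave 567 peak-poor bins among the 2249 autosomal bins with a peak. For comparison, 282 peak-dense bins of 50 or more peaks held 17999 peaks. ATAC-seq reads where the transposase Tn5 can insert into open chromatin, and each 700 bp peak has a raw count per library, on mm10.

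The 14 libraries came from Lin- Sca1+ cKit+ CD34- Flt3- cells of C57BL/6 bone marrow. Aged Ri libraries (n = 5) came from mice over 80 weeks old and received the RhoA inhibitor Rhosin (Ri) at 100 µM for 16 h. Aged libraries (n = 5) came from mice of the same age without the inhibitor, and young libraries (n = 4) from mice of 10 to 16 weeks, also without it. Cells of all 3 groups spent those 16 h in serum-containing HBSS at 37 °C and 3% oxygen, so no group is freshly isolated. The number of animals behind a replicate is not stated, and p-values measure the spread between these libraries. Sequencing batch 1 held aged Ri 1 and 2, aged 1 and 2 and young 1, batch 2 held aged Ri 3 and 4, aged 3 and 4 and young 2 and 3, and batch 3 held aged Ri 5, aged 5 and young 4.

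Megabases with few open sites are usually gene-poor, and much of such DNA is packed as heterochromatin, touches the nuclear lamina and replicates late. They hold clustered receptor families and very long genes of neural adhesion, which most blood cells do not express. Loosening of heterochromatin has been described in ageing cells of several species, and RhoA, through the actin cytoskeleton, is among the proteins that carry force to the nucleus. No histone mark or lamina contact was measured here, so the bins are called by their peak density alone.

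Promoter sequence is shown for Ppp2r1a, which encodes the scaffold subunit of protein phosphatase 2A and is among the 8 most accessible members, and for Esrrg, which encodes oestrogen-related receptor gamma and has a start in 1 of the 5 members that differed between aged Ri and aged cells. Both runs are the 200 bases before a start in the RefSeq promoter table on GRCm38.p6, the assembly called mm10, on the plus strand, and lie within the peak. The Esrrg peak lies within the gene span, over 1 kb from either annotated end of the gene, so its start is an internal one. Capitals mark matches on either strand to ETS (CCGGAAG), SP and KLF (GGGCGG) and CCAAT letters.
Ppp2r1a, chr17:20945254-20945453: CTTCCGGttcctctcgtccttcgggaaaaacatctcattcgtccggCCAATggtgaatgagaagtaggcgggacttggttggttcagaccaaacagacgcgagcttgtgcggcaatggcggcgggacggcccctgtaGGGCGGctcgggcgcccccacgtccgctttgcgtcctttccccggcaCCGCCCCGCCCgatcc
Esrrg, chr1:187997627-187997826: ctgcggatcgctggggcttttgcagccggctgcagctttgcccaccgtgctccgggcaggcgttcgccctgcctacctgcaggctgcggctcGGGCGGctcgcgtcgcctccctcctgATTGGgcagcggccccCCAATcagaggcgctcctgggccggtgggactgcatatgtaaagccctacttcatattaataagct
The Ppp2r1a window held 22 CpG dinucleotides, a GC content of 64.5%, 1 ETS match, 3 SP and KLF matches, of which a pair overlaps, and 1 CCAAT match. The Esrrg window held 16 CpG dinucleotides, a GC content of 65.5%, 1 SP and KLF match and 2 CCAAT matches.

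Both windows resembled the other promoters open in peak-poor bins in holding the SP and KLF letters. Of 336 promoters with a peak in these bins, 55.4% held GGGCGG within the 200 bases before the start, against 57.7% of 3575 in peak-dense bins and 31.0% of 32851 promoters of the RefSeq table. The ETS letters were in 10.1%, against 12.7% in peak-dense bins and 6.29% of all promoters. CCAAT was in 37.5%, against 33.9% and 29.3%. TATAAA was in 4.76% (4.31% and 9.96%), AP-1 letters TGANTCA in 3.57% (3.78% and 5.48%), GATA letters AGATAA in 4.46% (3.72% and 7.8%) and RUNX letters TGTGGT in 9.23% (9.51% and 11.2%). Over the whole 300-base promoters of the table, the median GC content was 60.2%, against 60.7% in peak-dense bins and 52.7% over all promoters.

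Isolated sites away from genes made up much of the set. Between genes lay 1040 of the 2212 peaks (47.0%), against 30.7% in peak-dense bins. Within gene spans lay 713 (32.2%, against 40.5%), and within 1 kb of an annotated gene end 459 (20.8%, against 28.8%). An annotated end can be either end of a gene, since the gene table gives no strand. The nearest other peak was a median of 38099 bp away, against 5229 bp in peak-dense bins, and 615 peaks (27.8%, against 1.96%) lay over 100 kb from any protein-coding gene. Peak-poor bins averaged 2.71 protein-coding genes, against 22.6, and 165 of the 567 had no gene start. Bins with a single peak numbered 114. At the threshold, the 46 bins of 8 peaks had a median mean count per peak of 15.4, and the 55 bins of 9 peaks, just outside, had 13.9.

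Gene families differed in how often they lay in these bins. Olfactory receptors, which detect odours, had 245 of 1104 autosomal genes (22.2%) in peak-poor bins and 3.35% in peak-dense bins, and vomeronasal receptors, which detect pheromones, had 28.2% and 7.06%. No member lay in a gene of either family. Synaptic and neurite adhesion genes such as neurexins, contactins and teneurins had 39.4% in peak-poor and 15.2% in peak-dense bins. Cadherins and protocadherins, which join cells, had 12.6% and 10.5%, and neural receptors and ion channels 12.4% and 28.1%. Zinc finger genes had 4.67% and 34.4%, and epidermal and secreted gene clusters 15.4% and 27.1%. Over all 20665 protein-coding genes, the shares were 7.43% and 30.9%.

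Library totals ran from 765533 counts (young 3) to 3176246 (aged Ri 3). The median member had 5 counts in young 3 and 25 in aged Ri 3, so single members carry a large counting error. Median mean counts were 14.5 for members and 21.0 for peaks in peak-dense bins. Of 12 stem cell marker genes, 10 had a peak at a gene end, and Slamf1 and Gata2 had none. The 10 summed to 307 to 492 CPM (counts at a common library size) in aged Ri, 395 to 515 in aged and 343 to 548 in young libraries. Of markers of other cells, a gene-end peak was found for 1 of 4 T and NK genes (Cd3d, and not Cd3e, Cd8a or Ncr1), 3 of 5 myeloid genes (not Ly6g or S100a8), 2 of 4 erythroid genes and 3 of 5 endothelial and stromal genes (not Cdh5 or Cxcl12). Their summed levels were 44.8 to 91.1 CPM in aged Ri, 35.7 to 103 in aged and 50.2 to 101 in young libraries for Cd3d, and 14.5 to 31.8 CPM in aged Ri, 20 to 29.4 in aged and 20 to 23.4 in young libraries for the myeloid genes. The erythroid genes had 30.6 to 53.0 CPM in aged Ri, 39.3 to 52.9 in aged and 34.4 to 44.4 in young libraries. Endothelial and stromal genes had 33.2 to 63.3 CPM in aged Ri, 45.1 to 57.1 in aged and 22.7 to 47.9 in young libraries. Cd79a and Ebf1, of B cells, summed to 40.1 to 74.4 CPM in aged Ri, 41.0 to 71.2 in aged and 64.6 to 141 in young libraries. All 4 megakaryocyte markers had a gene-end peak, with sums of 102 to 155 CPM in aged Ri, 136 to 193 in aged and 80.4 to 151 in young libraries. Of 4 non-blood control genes, Myod1 alone had a gene-end peak. It had 5.49 to 10.5 CPM in aged Ri, 3.76 to 11.2 in aged and 0.687 to 7.26 in young libraries. Per gene with a peak, this control averaged 6.85 CPM and the myeloid genes 8.1. The part of other cell types in the results below was not tested.

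The 8 most accessible members were called in no comparison. A site at chr12:97061261-97061960, the single peak of its bin, 1140327 bp from the nearest gene Galc (galactosylceramidase), averaged 7300 counts. It had 4020, 5390, 3660, 3180 and 3520 CPM in aged Ri, 4730, 3990, 3700, 4900 and 3030 in aged and 2090, 4160, 6770 and 3480 in young libraries. The groups overlapped, and the widest spread was among young libraries. Intergenic sites nearest to Nxph1 (a neurexophilin), G6pd2 (a glucose-6-phosphate dehydrogenase) and Tyrp1 (a melanocyte enzyme) and peaks at an end of Ripk2 (a kinase of innate immune signalling), within Arhgap21, at an end of Stt3a (an oligosaccharyltransferase subunit) and at an end of Ppp2r1a followed. Ppp2r1a, whose promoter is printed above, averaged 152 ± 38.0 CPM in aged Ri (SD, n = 5), 151 ± 41.5 in aged (SD, n = 5) and 167 ± 27.2 in young libraries (SD, n = 4). Members with a mean count over 500, the first 3 of the 8, held 9.25% (young 1) to 21.3% (young 3) of all counts in peak-poor bins.

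Aged cells were compared with young cells to ask what ageing changes in these megabases. Members held a larger share of the reads in 4 of 5 aged libraries than in any young one. The share of all counts was 3.99%, 3.83%, 3.84%, 3.67% and 3.32% in aged libraries 1 to 5, against 2.65%, 3.33%, 3.51% and 3.36% in young libraries 1 to 4. Aged 1 to 4 lay above every young library, and aged 5 lay below young 2, 3 and 4. The means were 3.73 ± 0.254% in aged (SD, n = 5) and 3.21 ± 0.386% in young libraries (SD, n = 4). The batch-adjusted difference of 0.534 percentage points did not pass a 2-sided exact permutation test within batches (p = 0.0556; 36 arrangements, smallest possible p 0.0278; 0.0833 after adjustment over 6 tests). By batch it was 1.26, 0.334 and -0.0385 points, and without young 1 it was 0.210. In bulk libraries, more cells with an open site and more opening per cell cannot be told apart.

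Without the 3 members of mean count over 500, a choice made after these values were seen, the groups separated. The share was then 3.22 ± 0.189% in aged (SD, n = 5) and 2.74 ± 0.237% in young libraries (SD, n = 4), higher by 0.491 points, with 5 of 5 aged libraries above all young ones (exact permutation p = 0.0278, the smallest possible; 0.0417 over 9 tests). By batch the difference was 0.940, 0.429 and 0.0178 points, and without young 1 it was 0.292 points (exact permutation p = 0.167). That is the smallest possible p there, since each of the 12 arrangements has a mirror image of opposite sign. The same floor holds for every exact test within batches against young cells when young 1 is left out. On peaks with mean counts of 5 to 30 the ratio of peak-poor to peak-dense counts was 1.38-fold higher in aged libraries (log2 0.46; exact permutation p = 0.0278; 0.0417 over 9 tests), and without young 1 the log2 difference was 0.28 (exact permutation p = 0.167). Peak-dense bins held a lower share, 35.1 ± 0.786% in aged (SD, n = 5) and 36.8 ± 0.780% in young libraries (SD, n = 4), a batch-adjusted difference of -1.78 points (exact permutation p = 0.0278; 0.0417 over 3 tests). By batch this was -3.40, -1.56 and -0.0418 points, and without young 1 it was -1.05 points (exact permutation p = 0.167).

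**Figure D1:**
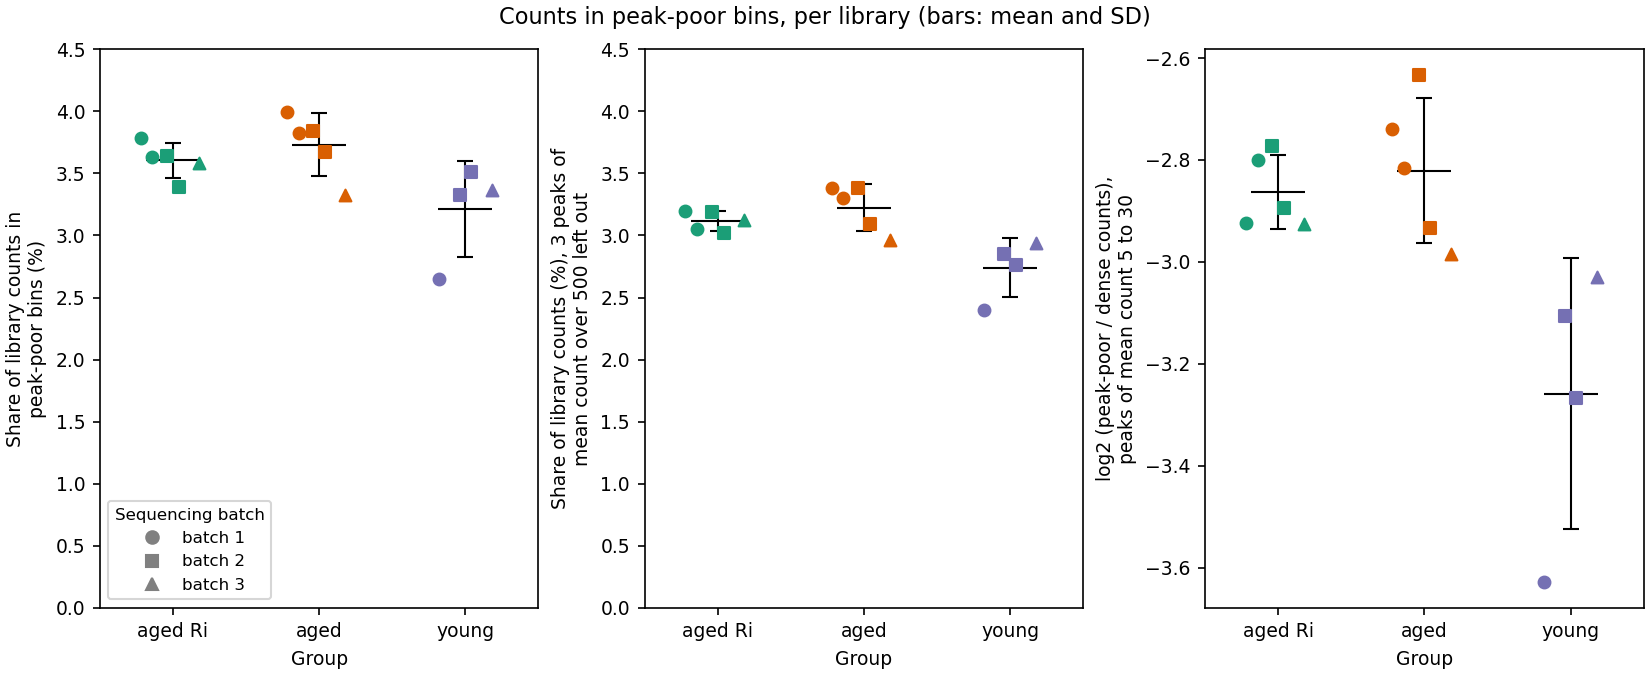
Share of counts (percent) in peak-poor bins per library, the same without the 3 members of mean count over 500, and the log2 ratio of peak-poor to peak-dense counts over peaks with mean counts of 5 to 30, with groups on the horizontal axes. Each marker is a library, its shape the sequencing batch, and bars give mean and SD; in the second panel the 5 aged libraries (2.96% to 3.38%) lie above the 4 young ones (2.40% to 2.94%).

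The difference became smaller in bins with more peaks. Peaks over a mean count of 500 were left out here, and shares are of the autosomal counts of the peaks kept. Aged minus young, the log2 share differed by 0.27 in bins of 1 or 2 peaks, 0.32 in bins of 3 or 4 and 0.23 in bins of 5 to 8. It differed by 0.13 in bins of 9 to 16 peaks, 0.07 in bins of 17 to 24 and 0.05 in bins of 25 to 32. In bins of 33 to 49 and of 50 or more it was -0.03 and -0.06. The 8-peak threshold lies within this slope. Without young 1 the first 3 values were 0.12, 0.19 and 0.13, and the last was -0.04.

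**Figure D2:**
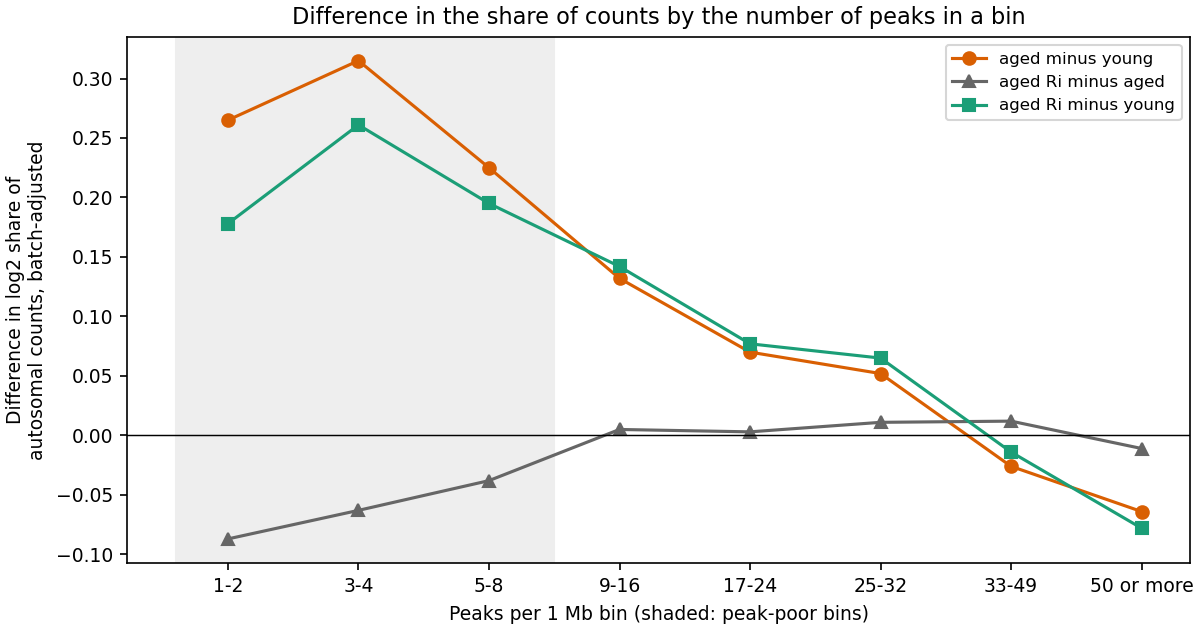
Batch-adjusted difference in the log2 share of autosomal counts (vertical axis) by number of peaks in the 1 Mb bin (horizontal axis), for aged minus young, aged Ri minus aged and aged Ri minus young; peaks with a mean count over 500 are left out and the shaded classes are peak-poor. Aged minus young runs between 0.23 and 0.32 in the shaded classes and is -0.06 in bins of 50 or more peaks.

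Peak by peak, 256 of the 2129 members that passed a filter on low counts were higher in aged cells (12%), at an edgeR quasi-likelihood adjusted p under 0.05, against 4.45% of all peaks tested. Members lower in aged cells numbered 5 (0.235%, against 1.26% of all peaks), where 5.72% of all peaks were called either way. The median log2 difference was 0.30 over members, -0.01 over all peaks and -0.11 in peak-dense bins, and without young 1 it was 0.16, -0.01 and -0.08. The called gains had a median of 2.76-fold. At an unadjusted p under 0.05, 556 members were higher and 59 lower. The count depended on single libraries. Called members numbered 72 without young 1, 112 without aged 3 and 372 without young 4, and 66 gains were called whichever library was left out.

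Gains lay mostly between genes and within genes, and few were at gene ends. Between genes, 170 of 989 members were higher (17.2%), against 5.93% of all such peaks and 3.57% in peak-dense bins. Within gene spans, 83 of 686 were higher (12.1%, against 5.24% and 3.47%). At gene ends, 3 of 454 were higher (0.661%), near the 1.03% of all gene-end peaks. Among members with mean counts of 5 to 30, 10.6% were higher, against 3.18% of all such peaks and 1.72% in peak-dense bins. As a ratio to peak-dense counts of the same class, peaks within genes were higher in 5 of 5 aged libraries than in any young one (log2 0.35; exact permutation p = 0.0278; 0.0833 over 9 tests; 0.21 without young 1). For peaks between genes the log2 difference was also 0.35 (exact permutation p = 0.167), and 0.08 without young 1, and at gene ends it was 0.15 (p = 0.111 by the same exact test).

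The share of reads at gene ends moved with these gains. Gene ends held 42.6 ± 4.4% of counts in aged (SD, n = 5) and 48.7 ± 1.94% in young libraries (SD, n = 4), a batch-adjusted difference of -5.45 points (exact permutation p = 0.0278; 0.167 over 6 tests). Without young 1 it was -4.43 points (exact permutation p = 0.167). With that share in the model, a choice made after these values were seen, 19 of the 256 gains remained called, against 0.256% of all peaks higher, and no loss was called. The median log2 difference of members was then 0.22, against 0.04 over all peaks.

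**Figure D3:**
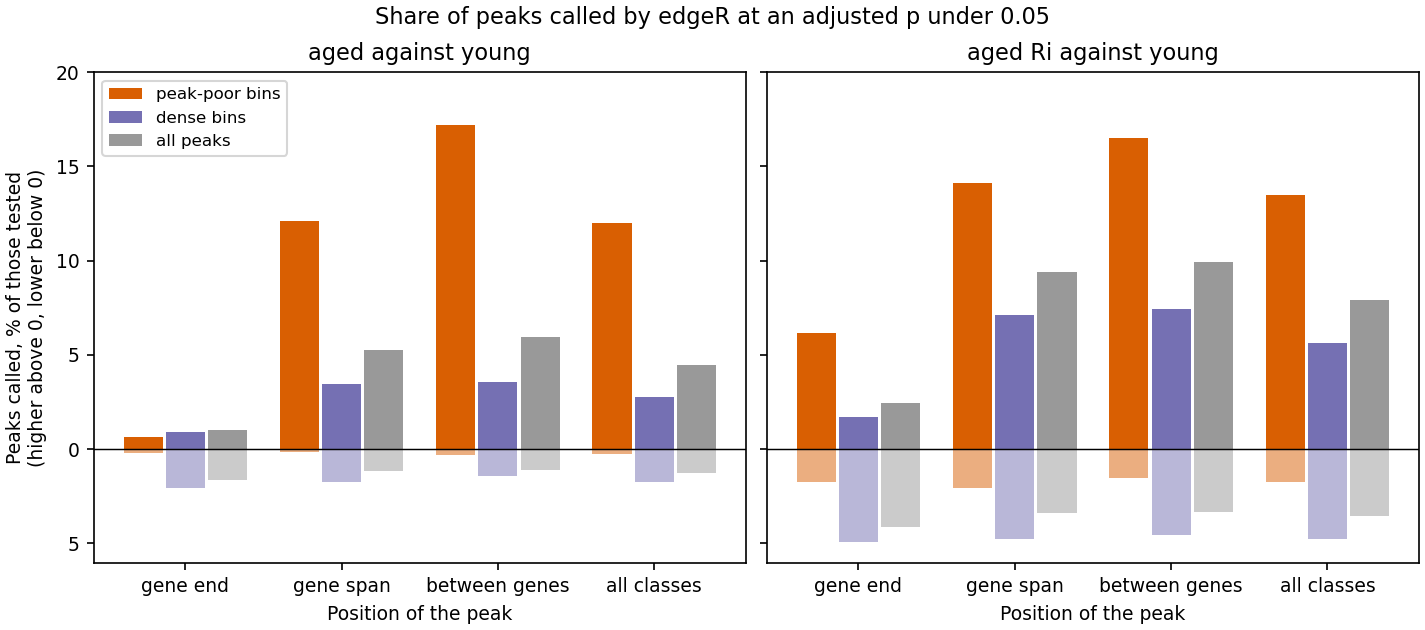
Percent of tested peaks called higher (above 0) and lower (below 0) at an edgeR adjusted p under 0.05, by position at a gene end, within a gene span, between genes or all, for peak-poor bins, peak-dense bins and all peaks, in aged against young and in aged Ri against young. In aged against young, 17.2% of members between genes and 0.661% at gene ends are called higher.

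Among the gains of largest fold was a site within Ros1, a receptor tyrosine kinase gene (chr10:52133351-52134050). It had 70.6, 64.4, 110, 62.3 and 29.8 CPM in aged libraries, against 4.89, 13.7, 8.52 and 10.2 CPM in young libraries. Every aged library lay above every young one, a 6.84-fold gain (log2 2.77 ± 0.29 SE; edgeR adjusted p = 8.69e-07). A site 77221 bp from Nr2f2 (chr7:70274026-70274725), which encodes the nuclear receptor COUP-TFII, had 27.3, 28.1, 34.2, 24.6 and 11.6 CPM in aged libraries, against 2.66, 4.12, 0.0 and 3.87 CPM in young ones. The groups did not overlap, and young 3 had no count there; the gain was 7.40-fold (log2 2.89 ± 0.36 SE; edgeR adjusted p = 8.24e-06). The site of largest fold lay 902232 bp from Cntnap5a, a neural adhesion gene (chr1:114781806-114782505), with 16.8, 9.37, 20.7, 8.9 and 11.6 CPM in aged libraries, against 2.22, 2.75, 1.42 and 0.484 CPM in young ones. Again no aged library overlapped a young one, at 7.63-fold (log2 2.93 ± 0.43 SE; edgeR adjusted p = 5.59e-05).

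Another 9 gains were named by the same rule. Sites near Fgf12 (a regulator of sodium channels; 6.16-fold), Car10 (a carbonic anhydrase-related protein; 5.13-fold) and Nr2f1, which encodes the nuclear receptor COUP-TFI (5.11-fold), kept their calls under every alternative tried, as did those of Ros1, Nr2f2 and Cntnap5a. Sites near Ctnna2 (an alpha-catenin that ties cadherins to actin; 6.87-fold), Cntnap5c (6.75-fold), Iftap (an intraflagellar transport-associated protein; 6.49-fold) and Grm7 (a glutamate receptor; 5.66-fold) lost theirs with that share in the model and under no other alternative (edgeR adjusted p = 0.184, 0.222, 0.07 and 0.17). A site near Cntnap2 rose 5.25-fold and was no longer called without young 1 (edgeR adjusted p = 0.0553) or with that share in the model (0.0873). A site near Pcdh17, a protocadherin gene, rose 5.36-fold (edgeR adjusted p = 0.0418). Leaving out aged 2 (0.0652), young 1 (0.195), young 2 (0.127) or young 3 (0.12) ended that call, as did loess offsets and the gene-end share in the model (0.703). All of these lay between genes, 210186 to 1244023 bp from the gene named, so the names mark position only.

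The 5 losses were weaker. A site within Celf2, which encodes a splicing regulator (chr2:7114925-7115624), had 9.62, 5.86, 1.13, 6.84 and 1.78 CPM in aged libraries, against 32.4, 8.93, 24.1 and 3.87 CPM in young ones. Young 2 and 4 lay within the aged range, and the site was 3.82-fold lower in aged cells (edgeR adjusted p = 0.00777; 0.106 without young 1). A site near Wdr11, a WD-repeat trafficking gene, was 2.56-fold lower (edgeR adjusted p = 0.00705; 0.16 without young 1), with every aged library (4.01 to 8.21 CPM) below every young one (11 to 21.3 CPM). The calls near Cntn5, a contactin gene (2.56-fold lower; edgeR adjusted p = 0.0211), at an end of Tespa1, a gene of T cell receptor signalling (2.21-fold lower; 0.0445), and near Epm2a, the laforin gene (1.69-fold lower; 0.0494), each ended without any of 5 or more single libraries. For Cntn5 these were aged 1, 2 and 3 and young 1 and 2 (0.0614 to 0.163), and for Tespa1 they were aged 1, 2 and 3 and young 1, 2 and 3 (0.052 to 0.222). For Epm2a they were aged 1 to 4 and young 1 to 3 (0.0565 to 0.221).

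Gains were also counted in gene families chosen for such DNA. In synaptic and neurite adhesion genes, 10 of 62 tested members were higher in aged cells and none lower, with a median log2 difference of 0.61. In neural receptors and channels 6 of 32 were higher (median 0.59), and in cadherins and protocadherins 2 of 16 (median 0.55). In zinc finger genes none of 14 was higher (median 0.17), nor was either of 2 in epidermal and secreted gene clusters (median -0.07). Over members in all protein-coding genes, 86 of 1111 were higher and 2 lower, with a median of 0.17, and of all peaks tested 4.45% were higher. That total mixes positions. At gene ends 3 of 454 members were higher (median -0.05), and within gene spans 83 of 686 (12.1%, median 0.35). How each family divides between these positions was not counted, so a difference between families and the total may reflect position. Genes with 3 or more called members were Lsamp, a neural adhesion gene (4 of 10), Naaladl2, which encodes a peptidase-like protein (3 of 4), and Rbfox1, which encodes a splicing factor of neurons and muscle (3 of 9).

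Summed over whole bins, which lowers counting error, 148 of 560 peak-poor megabases were higher in aged cells (26.4%), against 14.4% of all 2242 bins tested, and 4 were lower (0.714%, against 8.43%, with 22.8% of all bins called either way). In peak-dense bins the balance was the other way, with 4 higher and 68 lower of 282. The median log2 difference was 0.32 in peak-poor and -0.13 in peak-dense bins, and without young 1 it was 0.17 and -0.09. The count of called peak-poor bins, 152 in all, fell to 34 when young 1 was left out, to 74 for aged 3, to 99 for aged 1 and to 100 for aged 2, and 33 higher bins were called whichever library was left out. With a scaling that removes trends of fold with abundance (loess offsets), 63 were higher (11.2%, against 9.46% of all bins) and 37 lower (6.61%, against 5.98%), at a median of -0.02. Both shares are near those of all bins. Bin sums rise with the number of peaks in a bin, so this scaling also removes a difference between peak-poor and peak-dense bins. It therefore cannot test the direction of the bins as a set. Single peaks kept their direction under the same scaling, with 227 higher (10.7%, against 4.08% of all peaks) and 10 lower (0.47%, against 1.98%).

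The bin of largest fold, 114 to 115 Mb of chromosome 1, holds no gene and 2 peaks, the Cntnap5a site among them. It had 36.6 ± 8.93 CPM in aged (SD, n = 5) and 6.86 ± 4.05 CPM in young libraries (SD, n = 4), a 5.90-fold gain (edgeR adjusted p = 7.79e-05). The bin at 79 to 80 Mb of chromosome 13, whose single peak is the Nr2f1 site, rose 5.19-fold (edgeR adjusted p = 0.00133), and both calls held under every alternative. Bins at 100 to 101 Mb of chromosome 2 (4.98-fold), 18 to 19 Mb of chromosome 4 with Mmp16 and Cnbd1 (4.56-fold), 62 to 63 Mb of chromosome 8 with Ddx60, Anxa10 and Spock3 (4.39-fold) and 76 to 77 Mb of chromosome 6 in Ctnna2 (4.37-fold) rose too, and these 4 calls ended with the gene-end share in the model alone (edgeR adjusted p = 0.0906 to 0.195). Of the 4 lower bins, that of Ripk2 and Osgin2 at 16 to 17 Mb of chromosome 4 was 1.31-fold lower (edgeR adjusted p = 0.0124; 0.0613 without young 1). Those at 15 to 16 Mb of chromosome 8 (1.42-fold; 0.0263), 24 to 25 Mb of chromosome 4 (1.25-fold; 0.0343) and 88 to 89 Mb of chromosome 18 (1.25-fold; edgeR adjusted p = 0.0417) each lost the call without any of 5 or more single libraries, at adjusted p up to 0.122.

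Long runs of peak-poor bins differed among themselves. The longest, 13 bins at 66 to 79 Mb of chromosome 4, holds 48 peaks and genes such as Astn2, Tlr4, Brinp1 and Ptprd. It collected 849 ± 84.0 CPM in aged (SD, n = 5) and 683 ± 122 in young libraries (SD, n = 4). Of its 44 tested peaks 9 were higher in aged cells, against 256 of 2129 members and 4.45% of all peaks. At 76 to 81 Mb of chromosome 6, around Ctnna2 and the synaptic adhesion genes Lrrtm1 and Lrrtm4, the sums were 187 ± 43.3 in aged (SD, n = 5) and 83.8 ± 24.2 in young libraries (SD, n = 4), with 4 of 13 peaks higher. At 24 to 30 Mb of chromosome 4, the sums were 352 in aged and 344 in young libraries. By chromosome, peaks over a mean count of 500 left out, the log2 share of counts in peak-poor bins was higher in aged than in young libraries on 19 of 19 autosomes, from 0.01 on chromosome 19 to 0.45 on chromosome 5. Without young 1 it was higher on 17 and lower on 2, from -0.05 to 0.34.

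**Figure D4:**
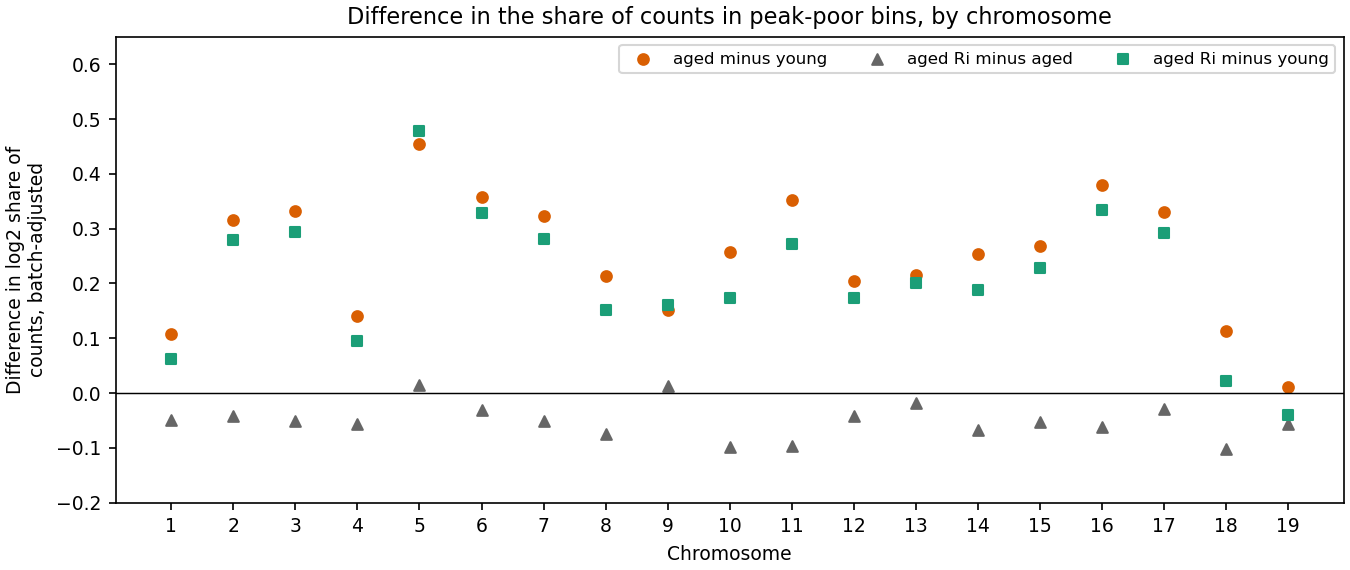
Batch-adjusted difference in the log2 share of counts in peak-poor bins (vertical axis) for each of the 19 autosomes (horizontal axis), in the 3 comparisons. Peaks with a mean count over 500 are left out. Aged minus young is above 0 on 19 autosomes, and aged Ri minus aged is below 0 on 17.

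Aged Ri cells were compared with aged cells to ask whether the RhoA inhibitor shifts this chromatin. Few members differed. The share of counts was 3.78%, 3.63%, 3.64%, 3.39% and 3.58% in aged Ri libraries 1 to 5, with the aged values as given above, so aged Ri lay below aged of the same number in 4 of 5. The means were 3.61 ± 0.142% in aged Ri and 3.73 ± 0.254% in aged libraries (SD, n = 5 each), a batch-adjusted difference of -0.127 points (2-sided exact permutation p = 0.306; -0.203, -0.244 and 0.259 points by batch). The log2 ratio to peak-dense counts differed by -0.04 (exact permutation p = 0.528). Both permutation tests shuffle labels within batches and do not use the replicate numbers as pairs. The log2 share differed by -0.10 to 0.02 between autosomes, below 0 on 17 of 19. The longest run, at 66 to 79 Mb of chromosome 4, collected 795 ± 48.4 CPM in aged Ri and 849 ± 84.0 in aged libraries (SD, n = 5 each), and none of its peaks was called.

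Of 2129 members, 3 were higher and 2 lower in aged Ri than in aged cells, 0.235% together, against 0.446% of all peaks (0.375% higher and 0.0711% lower). The median log2 difference was -0.08 over members and -0.02 over all peaks, and at an unadjusted p under 0.05, 88 members were higher and 153 lower. Of the 560 bins none was called, as of all bins (0.0%), with 18 higher and 35 lower at an unadjusted p under 0.05 and none with DESeq2. Aged Ri and aged libraries of the same number tended to deviate together, though aged Ri 4 matched aged 5 best. Both groups were therefore also fitted alone with the replicate number as a block. That fit called 43 members higher and 47 lower of 1931, 2.23% higher against 2.89% of all peaks, and 2.43% lower against 1.53%, with 4.42% of all peaks called either way. It called 7 bins higher and 11 lower of 551, against 2.06% of all bins higher and 1.97% lower (4.03% together).

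The 5 called members differed by 2.05- to 2.39-fold, on few counts. The Esrrg peak (chr1:187997445-187998144), whose promoter is printed above, had 12.5, 21.3, 22.3, 17.3 and 31.9 CPM in aged Ri libraries, against 9.62, 9.96, 9.02, 8.21 and 12.9 CPM in aged libraries. Only aged Ri 1 lay within the aged range, and the peak was 2.08-fold higher in aged Ri (edgeR adjusted p = 0.0384), while young libraries had 7.99, 13.1, 9.94 and 14 CPM. Sites near Sema3a, a secreted axon guidance cue (2.39-fold; edgeR adjusted p = 0.0455), and Mef2c, a transcription factor (2.05-fold; 0.0366), were higher too.

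The lower calls were at a pair of sites that were higher in aged than in young cells. A site within Anks1b, a synaptic scaffold gene (chr10:90431040-90431739), had 7.29, 13.6, 9.04, 13.3 and 18.2 CPM in aged Ri, 20.1, 26.9, 43.6, 32.2 and 14.2 CPM in aged and 5.77, 8.93, 8.52 and 6.29 CPM in young libraries. It was 2.21-fold lower in aged Ri than in aged cells (edgeR adjusted p = 0.0417), and 3.83-fold higher in aged than in young cells (0.000252). A site within Ctnnd2, the delta-catenin gene (chr15:30945769-30946468), had 5.73, 5.96, 11.3, 6.83 and 7.28 CPM in aged Ri, 15.2, 14.1, 30.1, 17.1 and 10.7 CPM in aged and 7.55, 6.87, 8.52 and 5.8 CPM in young libraries. It was 2.30-fold lower in aged Ri than in aged cells (edgeR adjusted p = 0.0324), and 2.41-fold higher in aged than in young cells (0.00948). Both comparisons use the same aged libraries, so these differences are not independent of each other.

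All 5 calls ended without a batch term, and each ended when any of 7 or more single libraries was left out. For Esrrg these were aged 1 to 5 and aged Ri 2, 3 and 5 (edgeR adjusted p = 0.065 to 0.241), and for Mef2c aged 1 to 5 and aged Ri 2 and 3 (0.0649 to 0.312). For Sema3a they were aged 1 to 5 and aged Ri 1, 2 and 3 (0.0561 to 0.413). For Ctnnd2 they were aged 1 to 4 and aged Ri 1 to 4 (0.0653 to 0.221), and for Anks1b the same libraries (0.0758 to 0.344). Members called numbered 0 without any of aged 1, 2, 3, 4 or aged Ri 2 or 3, and 13 without aged Ri 5.

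**Figure D5:**
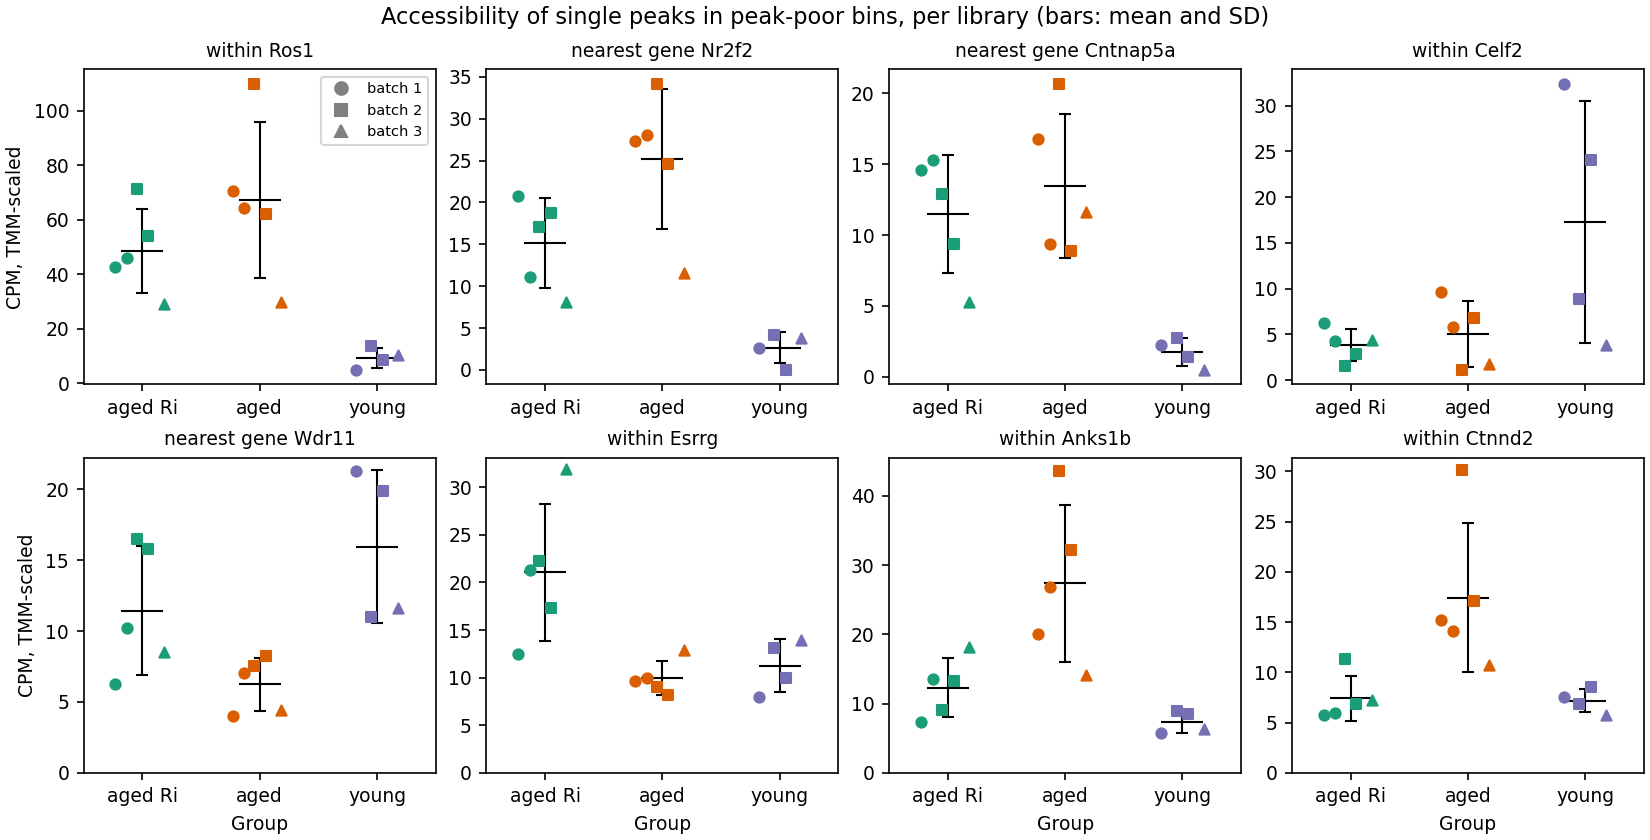
CPM per library (vertical axes) at sites in or nearest to Ros1, Nr2f2, Cntnap5a, Celf2, Wdr11, Esrrg, Anks1b and Ctnnd2, with aged Ri, aged and young on the horizontal axes; markers are libraries and bars mean and SD. At Ros1 the aged libraries (29.8 to 110 CPM) lie above the young ones (4.89 to 13.7 CPM), and at Anks1b 4 of 5 aged libraries lie above every aged Ri library.

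Aged Ri cells were last compared with young cells. Far more members were called higher than lower in aged Ri cells, as in aged cells. The share of counts averaged 3.61 ± 0.142% in aged Ri (SD, n = 5) and 3.21 ± 0.386% in young libraries (SD, n = 4), a difference of 0.419 points (2-sided exact permutation p = 0.0556; 0.0833 over 6 tests), and of 0.134 points without young 1 (exact permutation p = 0.333). Without the 3 members of mean count over 500 it was 3.12 ± 0.0815% (SD, n = 5) and 2.74 ± 0.237% (SD, n = 4), higher by 0.399 points, with 5 of 5 aged Ri libraries above all young ones (exact permutation p = 0.0278, the smallest possible; 0.0417 over 9 tests). By batch this was 0.722, 0.294 and 0.179 points, and without young 1 it was 0.256 points (exact permutation p = 0.167).

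Members higher in aged Ri cells numbered 288 of 2129 (13.5%, against 7.9% of all peaks), and 37 were lower (1.74%, against 3.56%; 11.5% of all peaks either way), with a median log2 difference of 0.25 over members and -0.03 over all peaks (0.16 and -0.01 without young 1). Called members numbered 179 without aged Ri 3, 202 without young 1 and 405 without young 4. Between genes 16.5% were higher (9.94% of all such peaks), within genes 14.1% (9.41%) and at gene ends 6.17% (2.45%). Of whole bins, 141 of 560 were higher (25.2%, against 17.4% of all bins) and 26 lower (4.64%, against 12.4%; 29.8% of all bins either way). Called bins, 167 in all, numbered 93 without young 1, 94 without aged Ri 3 and 111 without aged Ri 5. With loess offsets 82 bins were higher (14.6%, against 14.3% of all bins) and 76 lower (13.6%, against 12.1%), near the shares of all bins. As above, those offsets cannot test the direction of the bins as a set. With the gene-end share in the model 44 members were higher and none lower. Gene ends held 42.5 ± 4.55% of counts in aged Ri (SD, n = 5) and 48.7 ± 1.94% in young libraries (SD, n = 4), a batch-adjusted difference of -5.72 points (exact permutation p = 0.0833).

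Of these 288 gains, 28 were at gene ends. Tenm4, a teneurin adhesion gene, had a site 317367 bp away (chr7:95853178-95853877) with 28.1, 22.1, 46.8, 24.8 and 18.6 CPM in aged Ri libraries, against 3.11, 5.5, 11.4 and 4.35 CPM in young libraries. All aged Ri libraries lay above all young ones, at 5.25-fold (edgeR adjusted p = 7.82e-06), and aged libraries had 16.9 to 42.5 CPM. Tafa1, a gene for a chemokine-like neural protein, had a site 5.08-fold higher (edgeR adjusted p = 1.36e-05), and a site within Lurap1l was 5.26-fold higher (1.78e-05). The Ros1 site was 4.99-fold and the Cntnap5a site 6.05-fold higher in aged Ri than in young cells (edgeR adjusted p = 3.76e-06 and 0.000158). These calls, and those near Gm4868, Iftap and Nr2f1, held under every alternative. Sites near Cntnap5c (7.61-fold), Ctnna2 (6.84-fold), Ptprk, a receptor tyrosine phosphatase gene (5.55-fold), and Grm7 (5.51-fold) lost the call with the gene-end covariate alone (edgeR adjusted p = 0.0827, 0.101, 0.153 and 0.121).

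Among the losses, the Celf2 site was 4.28-fold lower in aged Ri than in young cells (edgeR adjusted p = 0.00202) and lost its call with the gene-end covariate alone (0.332). A site near Gm5861 was 2.69-fold lower (edgeR adjusted p = 0.00526), with 1.94 to 4.69 CPM in aged Ri libraries, below the 8.44 to 13.1 CPM of young ones. A site near Csmd1, which encodes a regulator of complement, was 3.14-fold lower (edgeR adjusted p = 0.0116) and ended without aged Ri 3 (0.0609) or young 3 (0.054). A site 725160 bp from Ets1, a transcription factor gene, was 2.71-fold lower (edgeR adjusted p = 0.00983; 0.264 without young 1). The other 8 named losses, near or in Sorcs1, B230307C23Rik, Cntn5, Tespa1, Ctnnd2, Il1rap, Gpam and Gm6749, were 2.23- to 2.68-fold lower, and each lost its call without at least 1 library.

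The same families were counted in aged Ri against young cells. In synaptic and neurite adhesion genes 10 of 62 members were higher (median log2 0.54), in neural receptors and channels 9 of 32 (0.54) and in cadherins and protocadherins 4 of 16 (0.59). In zinc finger genes none of 14 was higher (0.09), nor either of 2 in epidermal and secreted gene clusters (0.29). None was lower in these families, against 123 higher and 22 lower of 1111 members in all protein-coding genes (median 0.20), and 7.9% of all peaks were higher. By position, 28 of 454 members at gene ends and 97 of 686 within gene spans (14.1%, median 0.32) were higher. In aged Ri against aged cells no member of these families was called, with medians of -0.19, 0.11, 0.07, -0.04 and 0.35 in the same order. Genes with 3 or more called members were Rbfox1 (4 of 9), Nrxn3, a neurexin gene (3 of 7), and Pik3c2g, a lipid kinase gene (3 of 4). Both comparisons with young cells share the 4 young libraries, so their values are given side by side and their overlap is not counted.

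Genes of the nuclear lamina and of heterochromatin proteins were looked up as well. Of 27 such genes, none had its gene-end peaks in a peak-poor bin. Of all 13788 gene-end peaks only 459 lay there, so none among 39 is near the general share. Emd, Suv39h1 and Atrx lie on a sex chromosome, which the bins leave out. Their 39 gene-end peaks had a median log2 difference of -0.30 in aged against young cells, against -0.22 over all gene-end peaks, of which 1.62% were lower. Of the 39, 2 were lower, at Lmnb1, which encodes lamin B1 (log2 -0.95, edgeR adjusted p = 0.0326), and Syne2, which encodes a nesprin (log2 -0.93, edgeR adjusted p = 0.0169). The other gene-end peak of Lmnb1 was not called (log2 -0.49, edgeR adjusted p = 0.215). These calls are not given under the alternatives. In aged Ri against aged cells the median was -0.05 and none was called. In aged Ri against young cells it was -0.37, with 1 higher and 3 lower, against -0.22 over all gene-end peaks, of which 2.45% were higher and 4.13% lower.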

How the data were processed

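Raw counts of 57289 consensus peaks in 14 libraries were used as the authors deposited them, whole numbers with no normalization. The build mm10 and the tools featureCounts, R 4.2.0 and SAMtools 1.14 are given per the submitters' processing notes; the aligner, the peak caller and the handling of duplicates and of the Tn5 shift are not given in the sources used here. Totals were 765533 to 3176246 counts, and counting error is largest for single weak members.

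Peaks and 1 Mb bin sums were tested with edgeR 4.0.16 in R 4.3.3 (filterByExpr, TMM, robust quasi-likelihood fit of group and sequencing batch over all 14 libraries), with Benjamini-Hochberg adjustment over all peaks or all bins and a threshold of 0.05. CPM are counts at a common library size with the TMM scaling. Group means are not adjusted for batch, so model folds can differ from their ratio. Shares of counts were compared by 2-sided exact permutation within batches (36 arrangements against young, 72 for aged Ri against aged), in Python 3.11.15 with numpy 2.4.6 and pandas 2.3.3. Figures used matplotlib 3.10.9, and the fits were tested on simulated data.

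Members and lists were chosen with earlier results of these data known. Named were the 8 most accessible members and, per comparison, up to 12 called members each way by log2 fold (mean count of at least 10, at most 1 per bin) and up to 6 bins each way. A peak was given its nearest protein-coding gene; gene spans and promoters are from RefSeq, GRCm38.p6. Genome sequence of the peaks was not used here.

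Alternatives were DESeq2 1.42.0 (size factors, test), no filter, no batch term, a replicate block, other bin rules and each library left out; loess offsets, the gene-end share as covariate and the removal of members over 500 mean counts test the scaling. Same-numbered aged Ri and aged libraries tended to deviate together over 25903 peaks (correlations 0.364, 0.137, 0.645, 0.276 and 0.544). The added fit of these libraries alone therefore took them as pairs. The main fit and the permutation tests adjusted for batch and used no pairs. The best match of aged Ri 4 was aged 5, though, and same-numbered libraries always share a sequencing batch. Whether they come from the same animals is not stated. The young libraries were not treated as paired by number (correlations with aged 0.0698, 0.0473, -0.248 and -0.278, with aged Ri 0.073, 0.0389, -0.201 and -0.162). No library pair of 91 held identical counts.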

Additional observations from a re-analysis of the deposited data

Results flagged for a closer look

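A library stood far from the rest of its group in 17 of 207 groups of values examined, and chance alone flags about 1 in 20. Young 1 had the lowest log2 ratio of peak-poor to peak-dense counts of the young libraries, -3.84. It is the single young library of its sequencing batch, and the report gives many of the values against young cells also without it.

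Among single members, aged Ri 5 was highest in its group near Tyrp1 (324 CPM) and near Epm2a (94.6 CPM), and aged 5 was highest in its group near Epm2a (185 CPM), Sorcs1 (20 CPM) and Gm6749 (20.5 CPM). Aged Ri 3 was highest near Grm7 (21.0 CPM), within Ctnnd2 at the site that was lower in aged Ri than in aged cells (11.3 CPM), and within Lurap1l (50.4 CPM). Aged Ri 2 was highest near Nr2f1 (20.4 CPM), aged 4 near Nxph1 (513 CPM), young 3 near Gm4868 (7.1 CPM) and young 1 at the other Ctnnd2 site (23.1 CPM).

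Among bins, aged Ri 2 was highest at 79 to 80 Mb of chromosome 13 (19.6 CPM), aged Ri 1 lowest at 16 to 17 Mb of chromosome 4 (211 CPM), aged 5 highest at 88 to 89 Mb of chromosome 18 (123 CPM) and aged 2 highest at 123 to 124 Mb of chromosome 14 (11.6 CPM).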

How the results depend on the processing

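Limits are set by depth, with a median of 5 to 25 counts per member and library, by 4 young libraries, which allow no exact p under 0.0278, and by young 1, the single young library of batch 1. Without young 1 no exact p within batches against young cells can be under 0.167. DESeq2, its size factors, no filter and loess offsets kept the counts of called peaks within 1.5 times in all 3 comparisons. Of the alternatives, the GC classes, the removal of members over 500 mean counts, the gene-end covariate and the fit of aged Ri and aged libraries alone were chosen after seeing the data; the cause of each change below was not tested.

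Called peaks numbered 19 (aged against young) and 44 (aged Ri against young) with the gene-end covariate, and called bins 6 and 15; loess offsets left 100 bins in aged against young. In aged Ri against aged, no batch term left 0 called peaks. The replicate block on aged Ri and aged libraries alone gave 90 called peaks and 18 bins, while the same block over all libraries gave 5 and 0; for the young libraries, whose numbers do not pair, that block gave 348 peaks in aged and 398 in aged Ri cells.

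Leaving out each library gave 72 to 372 peaks and 34 to 206 bins in aged against young, 0 to 13 and 0 to 0 in aged Ri against aged, and 179 to 405 and 93 to 191 in aged Ri against young.

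The aged minus young share was 0.518 points with no batch term, 0.350 over peaks of mean count 5 to 30, 0.574 without gene ends and 0.491 without members over 500. Each then had an exact permutation p under 0.05 (0.0476 with no batch term and 0.0278 otherwise). Over left-out libraries the share of all members was 0.210 to 0.706 points, with an exact permutation p of 0.0556 to 0.333, never under 0.05. Fewer arrangements raise the smallest possible p there. The matching log2 ratios to peak-dense counts were 0.29, 0.46, 0.35 and 0.31, and 0.13 to 0.40 over left-out libraries. For aged Ri minus young, the share was 0.391 (no batch term) and 0.399 (without members over 500), and 0.134 to 0.524 over left-out libraries. The log2 ratio was 0.25, 0.28 and, over weak peaks, 0.42, with 0.12 to 0.33 over left-out libraries. At peaks that hold a promoter start of high and low GC it was 0.25 and 0.16. For aged Ri minus aged, the log2 ratio turned to 0.043 and 0.0080 at peaks that hold a promoter start of high and low GC.

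By peak class, the log2 ratio at gene ends in aged Ri minus young was 0.16 with no batch term (exact permutation p = 0.0635) and 0.15 with the replicate block (0.5). Within genes the block gave 0.38 for aged and 0.30 for aged Ri minus young (exact permutation p = 0.125 each, the smallest possible with that block). Over left-out libraries, the values were 0.07 to 0.21 (gene ends), 0.21 to 0.44 (within genes) and 0.08 to 0.46 (between genes) for aged minus young. They were -0.0049 to 0.055, -0.08 to -0.01 and -0.15 to -0.06 for aged Ri minus aged, below 0 at gene ends without aged 5 or aged Ri 5. They were 0.14 to 0.21, 0.20 to 0.36 and -0.022 to 0.37 for aged Ri minus young, below 0 between genes without young 1.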

Other observations

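Outside both classes of bin, peaks that hold a start of the RefSeq promoter table were split by the GC content of that promoter. This set is not the gene-end class used above. Those of low GC content had a mean log2 ratio to those of high GC content of -0.47 ± 0.20 in aged (SD, n = 5) and -0.71 ± 0.15 in young libraries (SD, n = 4), with overlapping groups. It differed by a batch-adjusted 0.22 between aged and young libraries (2-sided exact permutation p = 0.0278; 0.0833 over 9 tests; 0.209, 0.313 and 0.0349 by batch), by 0.15 without young 3, and by 0.22 between aged Ri and young libraries (exact permutation p = 0.0833; 0.125 over 9 tests).

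Other long runs of peak-poor bins held genes of axon guidance. The run at 46 to 51 Mb of chromosome 5 holds Slit2, a secreted guidance cue, and Kcnip4, a potassium channel partner. There 7 of 26 tested peaks were higher in aged Ri than in young cells, against 288 of 2129 members and 7.9% of all peaks. In aged against young cells 3 of 26 were higher, against 256 of 2129 members and 4.45% of all peaks. At 69 to 75 Mb of chromosome 16, which holds the Slit receptor genes Robo1 and Robo2, 1 of 28 was higher in aged Ri than in young cells and 4 of 28 in aged than in young cells.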
